A study of Homo sapiens with 27 samples.

Results

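The Notch pathway was followed through 10 genes that encode its receptors, ligands, target repressors and a feedback inhibitor: NOTCH1, NOTCH2, JAG1, JAG2, DLK1, HES1, HES6, HEY1, HEY2 and NRARP. They were listed by name, with earlier results of these data known. All 10 were found among the 41686 human genes of one table and the 34742 of the other, and passed its minimum of a mean of 10. The cells were SHP77, an established human small cell lung cancer line. For total RNA, cells carried a stable lentiviral shRNA against green fluorescent protein (shGFP, n = 2 libraries), circRMST shRNA 1 (n = 2) or circRMST shRNA 2 (n = 2), after selection with 3 µg/ml puromycin that lasted 3 days or more. For poly(A) RNA, cells were harvested 72 hours after transfection with a control siRNA (si-control, n = 3), SOX2 siRNA 1 or 2 (n = 2 each) or NKX2-1 siRNA 1 or 2 (n = 2 each), and carried no shRNA that the labels mention. CircRMST is a circular transcript of RMST, a long non-coding RNA gene, and SOX2 and NKX2-1 are transcription factors that it binds, per the series text. The replicates are called biological, but nothing says that they were separate cultures, so the p-values measure the spread between these libraries.

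Notch signalling passes between neighbouring cells. A ligand such as JAG1 on the surface of a cell binds a receptor on the next, proteases then free the receptor's intracellular domain, and this domain joins the DNA-binding protein RBPJ and switches on repressors of the HES and HEY families. In the airway, these repressors are known to hold down the neuroendocrine state, and most neuroendocrine small cell tumours are known to have low Notch activity.

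Depth was 46.9 to 57.4 M reads (M for megareads) in the total RNA libraries and 15.5 to 50.1 M in the poly(A) libraries. Mitochondrial genes took 46.5% to 51.5% of the reads in total RNA and 6.9% to 10.3% in poly(A) RNA. SOX2 fell by 1.43 (log2) with its siRNAs and NKX2-1 fell by 1.29 with its own, with all 4 knockdown libraries below all 3 controls in each case. The row of RMST counts the whole gene and so checks nothing about the circle. It stood at 275 and 304 in shGFP and at 234 to 289 in the circRMST shRNA libraries. All 11 markers of neuroendocrine small cells had a mean of at least 10 over the total RNA libraries and over the poly(A) libraries. Their sum was 119152 to 119263 normalized counts in shGFP against 73131 to 96552 in the circRMST shRNA libraries. The sum of 8 markers of the non-neuroendocrine type was 454 to 547 in shGFP and 833 to 1112 in the circRMST shRNA libraries. Of these 8, 4 had a mean under 10 over the total RNA libraries. Across the poly(A) libraries, the neuroendocrine sum was 103357 to 104417 in si-control, 79029 to 86542 with the SOX2 siRNAs, 91775 to 93219 with NKX2-1 siRNA 1 and 121242 to 122793 with NKX2-1 siRNA 2. A sum follows its most abundant markers and can hide markers that move against it. INSM1, 1 of the 11, fell with the sum in the circRMST shRNA libraries, from a mean of 5592 to 1890 and 2588. With SOX2 siRNA 1 and 2 it rose from 13204 to 18426 and 18244, against the sum. The other markers are not given singly. The part of these marker shifts in the results below was not tested. Both shGFP libraries stood apart from the other total RNA libraries in their background. In the poly(A) libraries 1548 protein-coding genes were silent, with no read at all. In total RNA, each shGFP library nevertheless detected many of these, 82.4% and 85.6%, against 14.7% to 20.5% in the 4 circRMST shRNA libraries. For these genes, the shGFP mean exceeded the knockdown mean by a median of 4.03 normalized counts and by 38.7 at the 99th percentile. No other total RNA control was at hand, so falls of weakly expressed genes are given below beside these values.

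Levels are normalized counts, which the authors scaled so that libraries of the same table can be compared. A change is a difference of group means of log2(normalized count + 1), averaged over both reagents of a knockdown, and it understates the change of weakly expressed genes. Its standard error (SE) and its p come from limma, and adjusted p is the Benjamini-Hochberg value over all genes of the table, with a threshold of 0.05. Of the 10 genes, 5 rose and 3 fell with the circRMST shRNAs, where 53.7% of the 19068 genes tested passed (27.8% higher and 25.9% lower). With the SOX2 siRNAs 2 rose and 8 fell, where 56.3% of 16750 genes passed (27.6% higher and 28.7% lower). Among these 8 is NOTCH1, which passed the minimum for testing through si-control, where it was high. With the NKX2-1 siRNAs 4 rose and 4 fell, where 39.9% passed (18.5% higher and 21.4% lower). The median change of the 10 was 0.042 against 0.0015 over all genes for circRMST, -0.42 against 0.0071 for SOX2, and -0.081 against -0.0043 for NKX2-1. Because the 10 genes were chosen with earlier results of these data known, these counts and medians test no excess over all genes. The 7 genes JAG1, DLK1, HES1, HES6, HEY1, HEY2 and NRARP passed in all 3 knockdowns, as did 19.7% of the 15846 genes tested in both tables. JAG1 rose and NRARP fell in all 3, and the others changed direction between knockdowns. The SOX2 and NKX2-1 comparisons share their controls. With the circRMST shRNAs, JAG1 did not pass with shRNA 2 alone, nor HES6 or NRARP with shRNA 1 alone. Those 3 circRMST calls were lost in some alternatives.

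**Figure D1:**
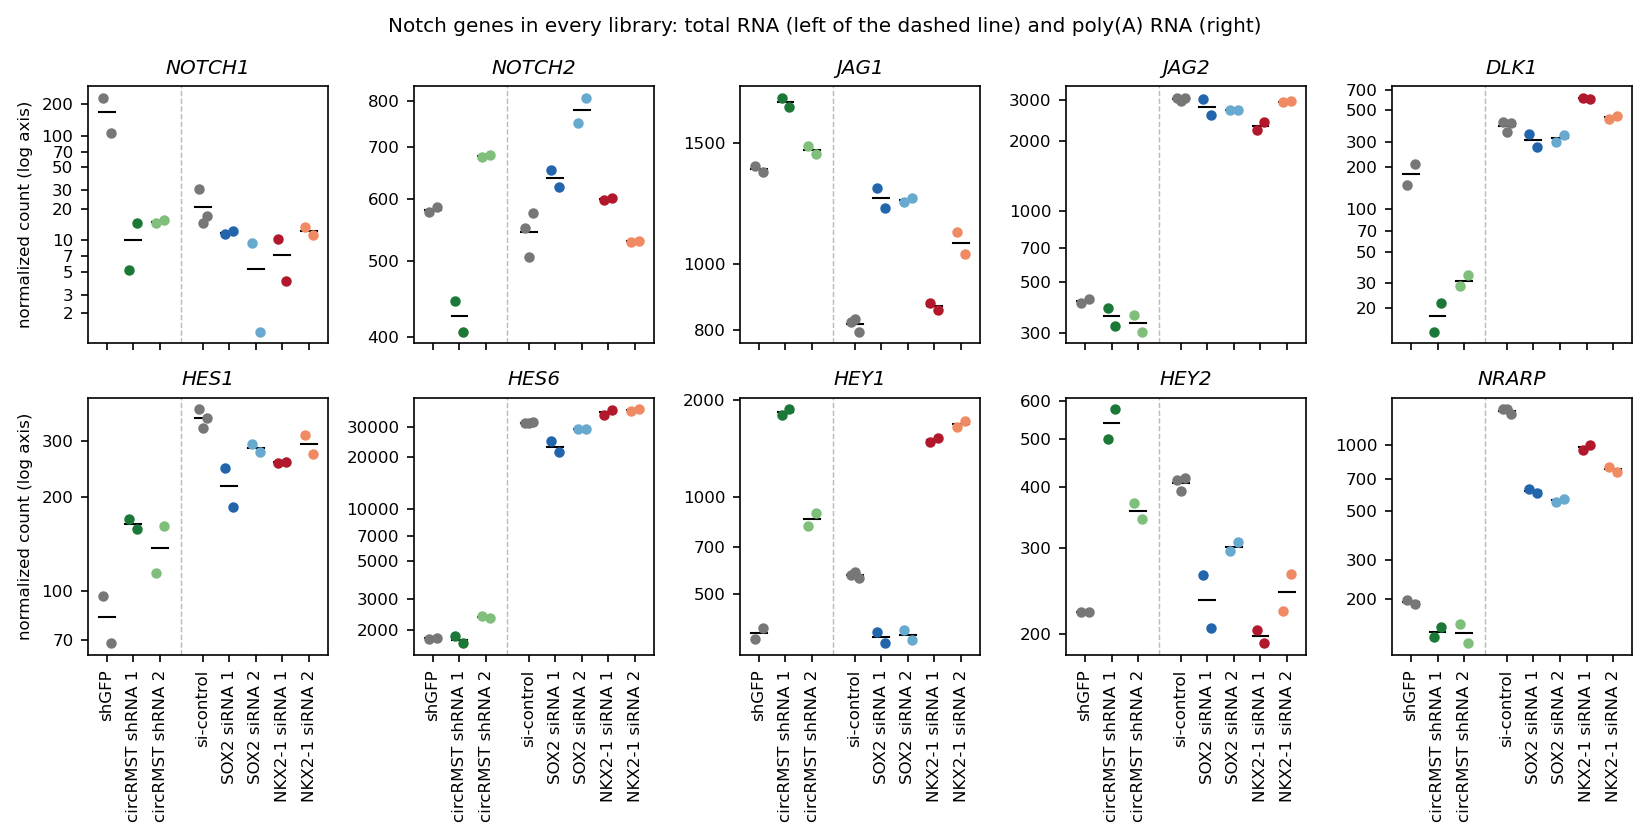
Normalized counts (log axis) of the 10 Notch genes in every library, with a point for each library and a bar for the group mean. Total RNA lies left of the dashed line and poly(A) RNA right of it, and these sides were normalized separately. HEY1 stood between 810 and 1876 with the circRMST shRNAs against 362 and 391 in shGFP, and DLK1 between 13.6 and 34.1 against 148 and 209.

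Gene positions are given in GRCh38.p14. Of the receptors, NOTCH1 (ENSG00000148400.9, chr9:136494433-136546048), whose cleaved domain enters the nucleus, stood at 230.2 and 105 normalized counts in shGFP, at 5.24 and 14.7 with circRMST shRNA 1 and at 14.7 and 15.5 with circRMST shRNA 2. All 4 knockdown libraries were far below both controls, and shGFP replicate 1 was well above shGFP replicate 2. NOTCH1 fell by 3.64 (SE 0.42, limma adjusted p = 1.50e-07), and the change was -3.99 with shRNA 1 alone and -3.28 with shRNA 2 alone. It was -3.08 without shGFP replicate 1 and -4.20 without shGFP replicate 2. The difference of means was 155 normalized counts, where the largest difference among the 1548 genes silent in the poly(A) libraries was 271. The part of this background in the fall was not tested. In bulk RNA, fewer cells with the transcript and less transcript per cell cannot be told apart.

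In poly(A) RNA, NOTCH1 was close to the limit of detection. Its values were 31.2, 14.6 and 16.9 in si-control, 11.4 and 12.3 with SOX2 siRNA 1, 9.34 and 1.34 with SOX2 siRNA 2, 10.4 and 4.09 with NKX2-1 siRNA 1 and 13.5 and 11.1 with NKX2-1 siRNA 2, from 1 to 25 reads a library. Every knockdown library lay below every control library, though by little for several. The change was -1.39 (SE 0.45, adjusted p = 0.0109) with the SOX2 siRNAs by limma, with -0.70 (adjusted p = 0.293) for siRNA 1 alone and -2.08 (adjusted p = 0.00231) for siRNA 2 alone. NOTCH1 passed the minimum for testing through si-control, where it was high, since its mean over the siRNA knockdown libraries was under 10. The average with the SOX2 siRNAs no longer passed with no filter on low values (adjusted p = 0.121), without a variance trend (0.0602), without si-control replicate 1 (-1.07, adjusted p = 0.0953) or without SOX2 siRNA 2 replicate 2 (-0.85, adjusted p = 0.0848). With the NKX2-1 siRNAs the change was -1.05 (adjusted p = 0.0673) and did not pass, while the count test of edgeR on the recovered reads gave -1.24 (adjusted p = 0.012).

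NOTCH2 (ENSG00000134250.18, chr1:119911553-120069662), another receptor, stood in total RNA at 577 and 586 in shGFP, at 445 and 407 with circRMST shRNA 1 and at 678 and 683 with circRMST shRNA 2. The 2 shRNAs lay on opposite sides of the controls, so that the average change was -0.11 (adjusted p = 0.33) by limma and did not pass. Equal library totals gave -0.26 (adjusted p = 0.0249), which passed, with the median over all genes at -0.14. ShRNA 1 alone gave -0.45 (adjusted p = 0.00123), shRNA 2 alone gave 0.23 (adjusted p = 0.0883), and the direct test of shRNA 1 against shRNA 2 gave -0.68 (adjusted p = 6.88e-05).

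In the siRNA libraries, NOTCH2 stood at 552, 507 and 576 in si-control, at 654 and 622 with SOX2 siRNA 1 and at 751 and 808 with SOX2 siRNA 2. All 4 SOX2 knockdown libraries lay above all 3 controls. NOTCH2 rose by 0.37 (SE 0.061, limma adjusted p = 7.60e-06), and siRNA 1 against siRNA 2 gave -0.29 (adjusted p = 0.0106). With NKX2-1 siRNA 1 it stood at 598 and 602 and with NKX2-1 siRNA 2 at 529.8 and 531. These values overlapped the controls, and the average change was 0.052 (95% interval -0.073 to 0.18). NOTCH2 has near-identical partial copies, the NOTCH2NL group, and how shared reads were counted was not given in the sources used here, so its values are uncertain to that extent. The row of NOTCH2NLA held 25.4 to 38.2 normalized counts in total RNA and 2.34 to 8.74 in poly(A) RNA.

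Of the ligands, JAG1 (ENSG00000101384.11, chr20:10637684-10673999), which binds and activates the receptors, stood at 1389 and 1361 in shGFP, at 1748 and 1697 with circRMST shRNA 1 and at 1487 and 1448 with circRMST shRNA 2. Both shRNAs lay above both controls, shRNA 2 only slightly. JAG1 rose by 0.21 (SE 0.065, limma adjusted p = 0.00924), but shRNA 2 alone gave 0.094 (adjusted p = 0.324). The call depended on the scaling of the libraries. Equal library totals gave a change of 0.064 (adjusted p = 0.442), with the median over all genes at -0.14, and without shGFP replicate 2 it was 0.19 (adjusted p = 0.061).

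In poly(A) RNA, JAG1 stood at 821, 829.9 and 796 in si-control, at 1291 and 1208 with SOX2 siRNA 1 and at 1232 and 1247 with SOX2 siRNA 2. The SOX2 siRNA libraries were tightly grouped and all far above the controls. JAG1 rose by 0.61 (SE 0.049, limma adjusted p = 3.42e-11), a 1.52-fold rise, with 0.61 for siRNA 1 and 0.60 for siRNA 2. With NKX2-1 siRNA 1 it stood at 878 and 857 and with NKX2-1 siRNA 2 at 1111 and 1034, all above the controls. The average rise was 0.24 (adjusted p = 0.000256) by limma, but NKX2-1 siRNA 1 alone gave 0.089 (adjusted p = 0.247), and the siRNAs differed from each other by -0.31 (adjusted p = 0.000648). The rise with the SOX2 siRNAs exceeded that with the NKX2-1 siRNAs by 0.37 (adjusted p = 1.01e-07) in the direct test of limma.

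JAG2 (ENSG00000184916.8, chr14:105140995-105168776), the other Jagged ligand, stood at 406 and 421 in shGFP, at 386 and 324 with circRMST shRNA 1 and at 358 and 306 with circRMST shRNA 2. The 4 knockdown libraries were all below both controls, but replicates of a shRNA differed by more than the gap. The change was -0.27 (adjusted p = 0.0553) by limma and did not pass, while edgeR on the recovered reads gave -0.28 (adjusted p = 0.0393). Equal library totals gave -0.42 (limma adjusted p = 0.00526), with the median over all genes at -0.14. Its poly(A) values were 3065, 2972 and 3059.9 in si-control, 3023 and 2579 with SOX2 siRNA 1 and 2713 and 2721 with SOX2 siRNA 2. SOX2 siRNA 1 replicate 1 lay among the controls and the other 3 below them. The fall with SOX2 siRNAs was small, -0.14 (SE 0.044, adjusted p = 0.00876) by limma. Leaving out SOX2 siRNA 1 replicate 2 gave -0.081 (adjusted p = 0.0675). With NKX2-1 siRNA 1 JAG2 stood at 2236 and 2407 and with NKX2-1 siRNA 2 at 2927 and 2969, and the latter were just below the lowest control. The average fall was -0.21 (adjusted p = 0.0003) by limma, and siRNA 1 differed from siRNA 2 by -0.35 (adjusted p = 4.01e-05).

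DLK1 (ENSG00000185559.13, chr14:100726892-100738224) encodes a ligand-like membrane protein without the domain by which canonical ligands bind Notch. It stood at 148 and 209 in shGFP, at 13.6 and 21.5 with circRMST shRNA 1 and at 28.5 and 34.1 with circRMST shRNA 2. Every knockdown library was far below both controls. DLK1 fell by 2.87 (SE 0.31, limma adjusted p = 3.73e-08), 7.32-fold, and the change was -3.28 with shRNA 1 alone and -2.46 with shRNA 2 alone. It was -3.12 without shGFP replicate 1 and -2.62 without shGFP replicate 2. Its difference of means, 154 normalized counts, lay above the 99th percentile (38.7) and below the maximum (271) of the genes silent in poly(A) RNA, and the part of that background was not tested.

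In poly(A) RNA, DLK1 moved in opposite directions with the 2 transcription factors. It stood at 413, 349.7 and 410.2 in si-control, at 341 and 273 with SOX2 siRNA 1 and at 298 and 336 with SOX2 siRNA 2. With NKX2-1 siRNA 1 it stood at 615 and 607, and with NKX2-1 siRNA 2 at 433 and 460.3. All SOX2 siRNA libraries were below all controls, and all NKX2-1 siRNA libraries above them. DLK1 fell by 0.33 (SE 0.082, limma adjusted p = 0.00128) with the SOX2 siRNAs and rose by 0.42 (SE 0.082, adjusted p = 0.000155) with the NKX2-1 siRNAs. NKX2-1 siRNA 2 alone gave 0.19 (adjusted p = 0.131), and siRNA 1 exceeded it by 0.45 (adjusted p = 0.00204). The direct test of the SOX2 against the NKX2-1 siRNAs, which uses no control library, gave -0.75 (SE 0.076, adjusted p = 2.93e-09).

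The HES and HEY genes encode basic helix-loop-helix repressors, and HES1, HEY1 and HEY2 are known targets of the complex of cleaved Notch and RBPJ. The RefSeq promoter table (GRCh38.p14) held 8 of the 10 genes. The 250 bases before the start are shown for HES1 (chr3:194135898-194136147, plus strand) and HEY2 (chr6:125749382-125749631, plus strand), whose levels moved most alike among the 10 genes and which are known Notch targets, and for NRARP (chr9:137302272-137302521, minus strand), which fell in every knockdown. Capitals mark matches to the RBPJ motif, GTGNGAA on either strand, in HES1 and HEY2, and to the SOX core, ATTGT on either strand, in NRARP.
HES1: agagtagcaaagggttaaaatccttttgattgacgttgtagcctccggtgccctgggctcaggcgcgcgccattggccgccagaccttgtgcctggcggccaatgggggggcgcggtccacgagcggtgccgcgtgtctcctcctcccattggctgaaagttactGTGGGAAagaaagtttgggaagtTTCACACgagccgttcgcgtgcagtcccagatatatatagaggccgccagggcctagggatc
HEY2: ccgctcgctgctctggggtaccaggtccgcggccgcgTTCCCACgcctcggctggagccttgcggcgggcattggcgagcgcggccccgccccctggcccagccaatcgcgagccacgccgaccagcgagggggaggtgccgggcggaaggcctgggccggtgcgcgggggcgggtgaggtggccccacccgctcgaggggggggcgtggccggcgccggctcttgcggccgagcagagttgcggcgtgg
NRARP: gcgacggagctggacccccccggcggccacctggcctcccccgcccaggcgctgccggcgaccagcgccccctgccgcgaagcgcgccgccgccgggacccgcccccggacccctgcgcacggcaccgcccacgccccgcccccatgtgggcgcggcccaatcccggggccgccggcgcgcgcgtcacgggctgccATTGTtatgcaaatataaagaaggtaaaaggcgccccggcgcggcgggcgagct
HES1 held 2 RBPJ matches, at positions -85 to -79 on the gene's strand and -62 to -56 on the other strand, counted from the gene start. HEY2 held 1, at -213 to -207 on the other strand. Such a match was found in 11.6% of the 35116 promoters in the table. HES1 also held 4 matches to the class C site of HES proteins, CACGNG, and 3 to the N-box, CACNAG, and 2 of these overlapped as CACGAG, which fits both. The class C motif was in 26.7% of promoters and the N-box in 32%. NRARP held 1 class C match at -65 to -60 and 1 SOX core at -54 to -50, and the SOX core was in 24.6% of promoters. JAG2 held 2 class C matches. None of these motifs, and no NKX2-1 core (CTCAAG, in 10.4% of promoters), was found in these windows of NOTCH1, NOTCH2, JAG1 or HES6. A match describes the letters and does not show binding.

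**Figure D2:**
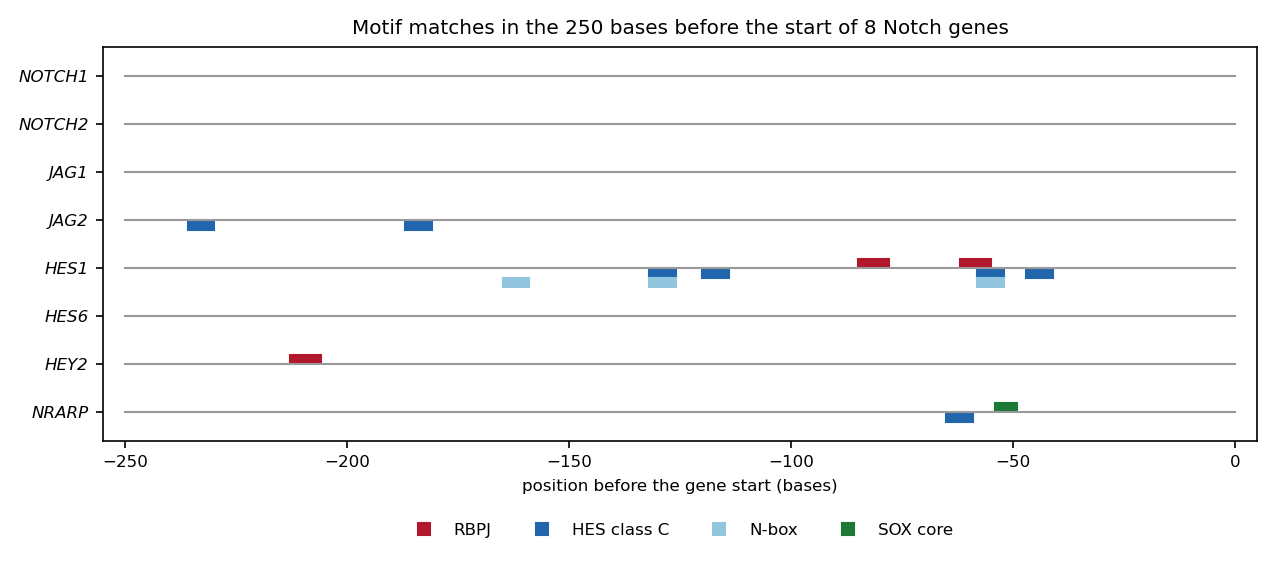
Positions of motif matches in the 250 bases before the gene start for the 8 genes in the promoter table, with a box for each match. HES1 carried 2 RBPJ matches and HEY2 carried 1, and NRARP held a SOX core at -54 to -50.

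HES1 (ENSG00000114315.3, chr3:194136148-194138732), the repressor most often used as a readout of Notch activity, stood at 96.6 and 68.3 in shGFP, at 169.7 and 158 with circRMST shRNA 1 and at 114 and 161 with circRMST shRNA 2. All 4 knockdown libraries were above both controls, shRNA 2 replicate 1 by the least. HES1 rose by 0.87 (SE 0.20, limma adjusted p = 0.000937), 1.82-fold, with 1.00 for shRNA 1 and 0.73 for shRNA 2. Leaving out shGFP replicate 1 gave 1.11 and leaving out shGFP replicate 2 gave 0.62 (adjusted p = 0.0437).

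In the siRNA libraries, HES1 moved the other way. Its values were 379, 330.2 and 355 in si-control, 246 and 185 with SOX2 siRNA 1, 293 and 278 with SOX2 siRNA 2, 257 and 258 with NKX2-1 siRNA 1 and 313 and 273 with NKX2-1 siRNA 2. All 8 knockdown libraries lay below all 3 controls, SOX2 siRNA 1 lowest. HES1 fell by 0.52 (SE 0.093, limma adjusted p = 2.92e-05) with the SOX2 siRNAs and by 0.37 (SE 0.093, adjusted p = 0.0024) with the NKX2-1 siRNAs. NKX2-1 siRNA 2 alone gave -0.28 (adjusted p = 0.0577). The 2 knockdowns did not pass the direct test against each other (-0.15, 95% interval -0.33 to 0.026, adjusted p = 0.139).

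HES6 (ENSG00000144485.10, chr2:238238267-238240038), a family member that is known to oppose HES1 and to favour neuronal differentiation, stood at 1778 and 1791 in shGFP, at 1838 and 1678 with circRMST shRNA 1 and at 2419 and 2341 with circRMST shRNA 2. ShRNA 1 straddled the controls and shRNA 2 lay above them. The average rise was 0.20 (SE 0.063, adjusted p = 0.0112) by limma, but shRNA 1 alone gave -0.023 (adjusted p = 0.821) and the shRNAs differed by -0.44 (adjusted p = 0.000112). Equal library totals reduced the average to 0.051 (adjusted p = 0.53), with the median over all genes at -0.14. Without either shGFP library or without circRMST shRNA 1 replicate 1 the adjusted p was 0.0506 to 0.0638, above the threshold.

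HES6 poly(A) values were 31285, 31668 and 31724 in si-control, 24616 and 21391 with SOX2 siRNA 1 and 29025 and 29164 with SOX2 siRNA 2. They were 35117 and 37634 with NKX2-1 siRNA 1, and 37069.7 and 37790.2 with NKX2-1 siRNA 2. All SOX2 siRNA libraries lay below the controls and all NKX2-1 siRNA libraries above them. HES6 fell by 0.29 (SE 0.034, limma adjusted p = 5.21e-08) with the SOX2 siRNAs and rose by 0.23 (SE 0.034, adjusted p = 6.28e-06) with the NKX2-1 siRNAs. Each of the 4 siRNAs passed alone. SOX2 siRNA 1 gave a larger fall than siRNA 2, by -0.34 (adjusted p = 1.97e-06), and the direct test of SOX2 against NKX2-1 siRNAs gave -0.51 (SE 0.032, adjusted p = 1.65e-13).

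HEY1 (ENSG00000164683.16, chr8:79764010-79767767) showed the largest rise of the 10 genes with the circRMST shRNAs and with the NKX2-1 siRNAs. It stood at 362 and 391 in shGFP, at 1806 and 1876 with circRMST shRNA 1 and at 810.4 and 895 with circRMST shRNA 2. Both shRNAs were far above the controls, and shRNA 1 was higher than shRNA 2 in both replicates. HEY1 rose by 1.73 (SE 0.082, limma adjusted p = 2.84e-14), 3.32-fold, with 2.29 for shRNA 1 and 1.18 for shRNA 2. The shRNAs differed by 1.11 (adjusted p = 1.00e-08) in the direct test.

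With the siRNAs, HEY1 split by transcription factor. It stood at 573, 586 and 559.6 in si-control, at 380.1 and 351 with SOX2 siRNA 1 and at 386 and 358 with SOX2 siRNA 2. It stood at 1479 and 1529 with NKX2-1 siRNA 1, and at 1647 and 1723 with NKX2-1 siRNA 2. The 3 groups did not overlap. HEY1 fell by 0.63 (SE 0.056, limma adjusted p = 2.08e-10) with the SOX2 siRNAs and rose by 1.47 (SE 0.056, adjusted p = 1.16e-17), 2.78-fold, with the NKX2-1 siRNAs. Neither pair of siRNAs passed the test against each other, with -0.027 (95% interval -0.18 to 0.12) for SOX2 and -0.16 (95% interval -0.31 to -0.013, limma adjusted p = 0.107) for NKX2-1. The direct test of the SOX2 against the NKX2-1 siRNAs gave -2.11 (SE 0.052, adjusted p = 4.65e-22), the largest difference of the 10 genes.

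HEY2 (ENSG00000135547.8, chr6:125749632-125761269), known for its role in vessels and heart, followed HES1. It stood at 222 and 221 in shGFP, at 502 and 576 with circRMST shRNA 1 and at 369 and 343 with circRMST shRNA 2. All 4 knockdown libraries were above the controls, which were nearly equal. HEY2 rose by 0.98 (SE 0.11, limma adjusted p = 1.59e-07), 1.97-fold, and more with shRNA 1 than with shRNA 2, by 0.59 (adjusted p = 0.0024).

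Among the poly(A) libraries, HEY2 stood at 412, 391 and 417 in si-control, at 264 and 206 with SOX2 siRNA 1, at 295 and 307 with SOX2 siRNA 2, at 204 and 191 with NKX2-1 siRNA 1 and at 222 and 265 with NKX2-1 siRNA 2. All 8 knockdown libraries lay below all controls, and NKX2-1 siRNA 1 was lowest. HEY2 fell by 0.62 (SE 0.092, limma adjusted p = 2.01e-06) with the SOX2 siRNAs and by 0.89 (SE 0.092, adjusted p = 9.10e-09) with the NKX2-1 siRNAs. Each siRNA passed alone. The fall was deeper with the NKX2-1 siRNAs, and the direct test gave 0.27 (adjusted p = 0.00746) for SOX2 minus NKX2-1. HEY1 and HEY2 thus rose together with the circRMST shRNAs and fell together with the SOX2 siRNAs, and went apart with the NKX2-1 siRNAs.

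NRARP (ENSG00000198435.3, chr9:137299631-137302271) encodes a small ankyrin repeat protein that is induced by Notch and damps it. It stood at 198 and 189 in shGFP, at 134 and 149.6 with circRMST shRNA 1 and at 154 and 126 with circRMST shRNA 2. All knockdown libraries were below both controls. NRARP fell by 0.46 (SE 0.17, limma adjusted p = 0.0234). The change was -0.45 (adjusted p = 0.0558) with shRNA 1 alone and -0.47 (adjusted p = 0.0482) with shRNA 2 alone. The call of the average rested on few libraries. Leaving out shGFP replicate 1, shGFP replicate 2, circRMST shRNA 1 replicate 1 or circRMST shRNA 2 replicate 2 gave changes of -0.49 to -0.39 with adjusted p of 0.0638 to 0.122. The difference of means was 52.6 normalized counts, above the 99th percentile of 38.7 of the genes silent in poly(A) RNA, and the part of this background was not tested.

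Among the poly(A) libraries, NRARP stood at 1451, 1455 and 1391 in si-control, at 633 and 605 with SOX2 siRNA 1 and at 551 and 569 with SOX2 siRNA 2. NKX2-1 siRNA 1 gave 949 and 1001, and NKX2-1 siRNA 2 gave 792 and 758. The 3 groups were well apart, SOX2 siRNAs lowest. NRARP fell by 1.28 (SE 0.051, limma adjusted p = 1.32e-17), 2.43-fold, with the SOX2 siRNAs and by 0.72 (SE 0.051, adjusted p = 7.12e-12) with the NKX2-1 siRNAs. Each siRNA passed alone, and the SOX2 siRNAs gave the deeper fall, by -0.56 (adjusted p = 8.50e-11) in the direct test. NKX2-1 siRNA 2 gave a deeper fall than siRNA 1, which stood higher by 0.33 (adjusted p = 0.000423).

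**Figure D3:**
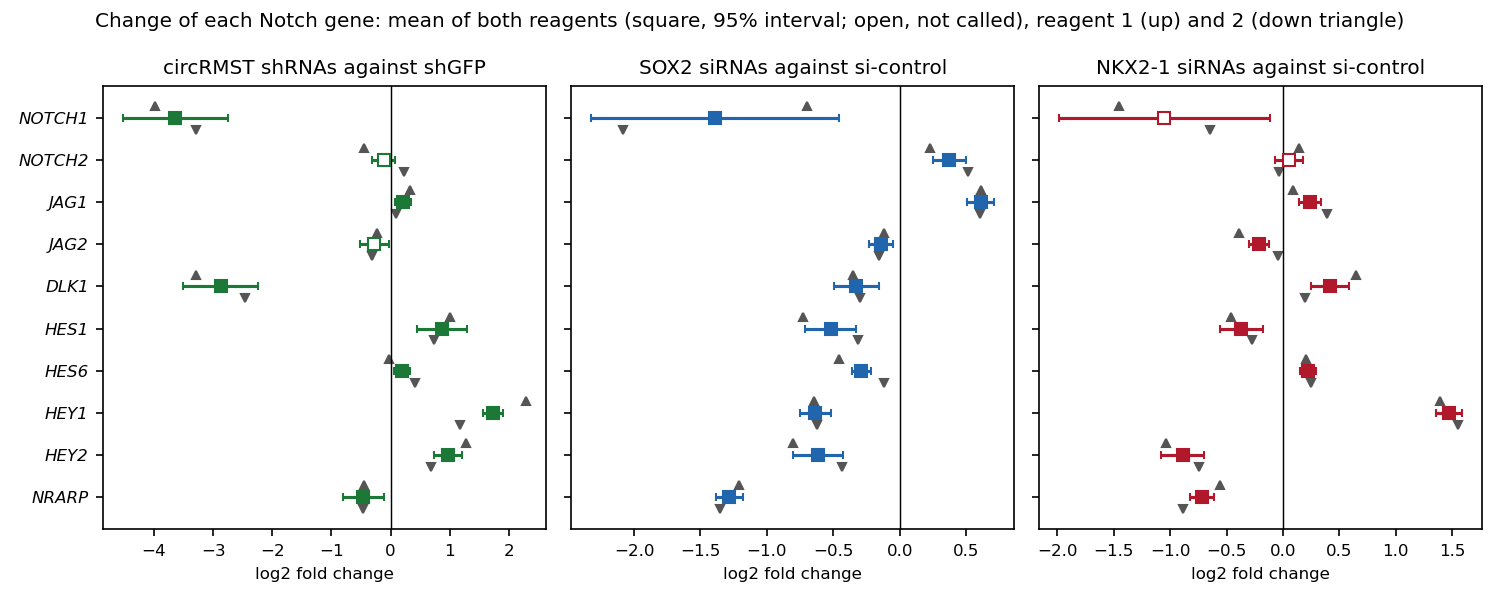
Log2 fold change of each gene in the 3 knockdowns, with a square and its 95% interval for the mean of both reagents and triangles for each reagent alone. Open squares did not pass an adjusted p of 0.05. HEY1 lies at 1.73 for circRMST, -0.63 for SOX2 and 1.47 for NKX2-1.

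Taken alone, circRMST shRNA 1 and shRNA 2 each called 7 of the 10 genes (51% and 47.4% of all genes), SOX2 siRNA 1 and 2 called 8 and 10 (53.1% and 49.1%), and NKX2-1 siRNA 1 and 2 called 8 and 5 (39% and 33.5%). The reagents of a knockdown differed from each other for 5 genes with circRMST (19.1% of all genes), 4 with SOX2 (18.5%) and 4 with NKX2-1 (26.5%). Both reagents of a knockdown passed alone in the same direction for 5 of the 10 genes with circRMST, 8 with SOX2 and 4 with NKX2-1. With the circRMST shRNAs, HES1, HEY1 and HEY2 rose with each, as did 19.6% of all genes tested, and NOTCH1 and DLK1 fell with each, as did 17.4%. With the SOX2 siRNAs, NOTCH2 and JAG1 rose with each (background 18.6%), and DLK1, HES1, HES6, HEY1, HEY2 and NRARP fell with each (background 19.3%). With the NKX2-1 siRNAs, HES6 and HEY1 rose with each (background 8.88%), and HEY2 and NRARP fell with each (background 10.2%). By range alone, knockdown and control libraries did not overlap for 8 of the 10 genes with circRMST (56.7% of all genes), 9 with SOX2 (49.5%) and 9 with NKX2-1 (33.9%). The latter 2 counts include NOTCH1, as do the calls of SOX2 siRNA 2 and NKX2-1 siRNA 1 alone. In poly(A) RNA it passed the minimum for testing through si-control, where it was high. The SOX2 and NKX2-1 comparisons share the si-control libraries, so their calls are not independent. The direct test between these knockdowns passed for 7 of the 10 genes, where 55.8% of all genes passed (27.9% higher with SOX2 siRNAs and 28% lower). NOTCH2, JAG1 and HEY2 were higher with the SOX2 siRNAs, and DLK1, HES6, HEY1 and NRARP were higher with the NKX2-1 siRNAs.

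Likeness was measured as Pearson's r over the 17 libraries, each as log2(normalized count + 1) minus the mean of its own controls. It is a description with no p, since libraries share groups and controls. Among pairs of the 10 genes, HES1 and HEY2 were most alike (r = 0.924), followed by NOTCH1 and DLK1 (r = 0.793). NOTCH1 and DLK1 both fell most with the circRMST shRNAs (-3.64 and -2.87). They parted with the NKX2-1 siRNAs, where DLK1 lay above all controls and NOTCH1 below them. JAG1 and NRARP were most opposed (r = -0.919), then DLK1 and HEY2 (r = -0.867) and DLK1 and HES1 (r = -0.839). HES1 and HEY1, both Notch targets, reached 0.581, and HEY1 and HEY2 0.41. Over 12295 genes with a mean of at least 50 in both tables, HEY1 was nearest to CD47 (r = 0.976), HEY2 to BACH1 (0.984), HES1 to ERAP1 (0.963), DLK1 to NEMP1 and CDCA7L (0.983 each), NRARP to PTPRT (0.947) and JAG1 to JPT1 (0.961). JAG2 had the weakest nearest gene, RPL10 (0.87).

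The rest of the pathway was read from lists of 60 other genes by role, of which 50 passed the minimum in both tables. With the circRMST shRNAs 18 of the 50 rose and 18 fell, with the SOX2 siRNAs 14 rose and 19 fell, and with the NKX2-1 siRNAs 11 rose and 12 fell. The shares of all genes tested that passed were 53.7% (27.8% higher and 25.9% lower), 56.3% (27.6% and 28.7%) and 39.9% (18.5% and 21.4%), and the counts by role below stand against these shares. Median changes of the 50 were 0.034, 0.017 and -0.063, against 0.0015, 0.0071 and -0.0043 over all genes. The lists too were chosen with earlier results of these data known, so their counts and medians test no excess.

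Among the other receptors and ligands, 3 of 6 fell with the circRMST shRNAs and none rose. NOTCH3 fell by 2.30 (limma adjusted p = 9.94e-05), from 62.7 and 57.9 in shGFP to 8.26 to 18.9, a difference of 48.3 normalized counts that lay above the 99th percentile (38.7) of the genes silent in poly(A) RNA, whose part was not tested. The Delta ligands DLL4, at 365 and 355 in shGFP and 91.0 to 152 with the shRNAs, and DLL1 fell by 1.54 (adjusted p = 1.50e-08) and 0.78 (adjusted p = 5.28e-08). The difference of means of DLL4 was 234 normalized counts, below the maximum of 271 of the silent genes. DLL3, an inhibitory ligand prominent in small cell lung cancer, did not pass in any knockdown averaged over both reagents, with changes of -0.17, 0.097 and -0.068. It was singled out after its values were seen. These averages hide unlike siRNAs. The DLL3 mean was 8085 in si-control, 7941 with SOX2 siRNA 1 and 9494 with SOX2 siRNA 2. It was 7240 with NKX2-1 siRNA 1 and 8220 with NKX2-1 siRNA 2. DLL4 rose by 0.31 (adjusted p = 0.00158) with the SOX2 siRNAs, but siRNA 1 alone gave 0.13 (adjusted p = 0.261) and its libraries overlapped the controls. It fell by 0.47 (adjusted p = 2.19e-05) with the NKX2-1 siRNAs, where DLL1 rose by 0.18. NOTCH4 rose by 0.44 (adjusted p = 0.0456) with the NKX2-1 siRNAs, and this call was lost in 9 of its alternatives, among them each of 4 single libraries left out, and NKX2-1 siRNA 2 alone gave 0.28 (adjusted p = 0.314).

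In the cell that receives the signal, 3 of 5 glycosyltransferases that modify the receptors rose with the circRMST shRNAs and 2 fell. LFNG, which changes the ligand preference of the receptors, fell by 1.39 (limma adjusted p = 6.43e-10), and RFNG rose by 0.61. Of the 8 proteases that cleave the receptors, 3 rose and 2 fell, with NCSTN, a subunit of gamma-secretase, up by 0.60 (adjusted p = 2.50e-08) and PSEN2 up by 0.42. With the SOX2 siRNAs 2 proteases rose and 5 fell, led by APH1B at -0.93 (adjusted p = 0.00326) and the sheddase ADAM17 at -0.66 (adjusted p = 6.84e-11). The fall of APH1B was -1.63 (adjusted p = 6.57e-05) with siRNA 1 alone, and siRNA 2 alone gave -0.22 (adjusted p = 0.58). With the NKX2-1 siRNAs 2 rose and 2 fell, with APH1A at 0.24 and APH1B at -0.83, the latter losing its call without NKX2-1 siRNA 1 replicate 2 (-0.71, adjusted p = 0.065) and at -0.63 (adjusted p = 0.113) with siRNA 1 alone. Of the glycosyltransferases, MFNG (0.28) and POGLUT1 (-0.18) were among the 2 that rose and the 2 that fell with the SOX2 siRNAs. With the NKX2-1 siRNAs 3 fell, POGLUT1 by 0.32 and POFUT1 by 0.16, and none rose. POGLUT1 with SOX2 siRNA 1 alone gave -0.0068 (adjusted p = 0.948), and its SOX2 call was lost under quantile normalization (adjusted p = 0.0817) and without si-control replicate 1 (0.0568) or SOX2 siRNA 1 replicate 1 (0.0714). POFUT1 with NKX2-1 siRNA 1 alone gave -0.12 (adjusted p = 0.0863). Its NKX2-1 call was lost under equal library totals (-0.10, adjusted p = 0.0826), with no filter (0.0865), without a variance trend (0.0714), and without si-control replicate 1 (0.0529) or NKX2-1 siRNA 1 replicate 1 (0.0527).

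RBPJ, the DNA-binding partner of cleaved Notch, stood at 764, 753 and 848 in si-control, at 1576 and 1791 with SOX2 siRNA 1, at 1915 and 1972 with SOX2 siRNA 2, at 1319 and 1310.4 with NKX2-1 siRNA 1 and at 1322 and 1193 with NKX2-1 siRNA 2. All 8 knockdown libraries were above the controls. RBPJ rose by 1.20 (SE 0.053, limma adjusted p = 1.42e-16) with the SOX2 siRNAs and by 0.71 (SE 0.053, adjusted p = 2.62e-11) with the NKX2-1 siRNAs. HES1, HEY2 and NRARP fell in both of these knockdowns, while HEY1 fell with the SOX2 siRNAs and rose by 1.47 with the NKX2-1 siRNAs. With the circRMST shRNAs RBPJ stood at 2684 to 3039, below 3260 and 3354 in shGFP. There HES1, HEY1 and HEY2 rose and NRARP fell. A link between RBPJ and these genes was not tested. In the nuclear complex 2 of 6 genes rose and 1 fell in either siRNA knockdown, where EP300 rose by 0.26 with SOX2 and KAT2B fell by 0.35 with NKX2-1. With the circRMST shRNAs 3 rose and 3 fell. KAT2B, an acetyltransferase recruited by the complex, rose by 1.33 (adjusted p = 1.70e-12), and the coactivator MAML1 fell by 0.69 (adjusted p = 6.37e-07).

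Of 8 corepressors, 5 rose and 1 fell with the circRMST shRNAs, where 27.8% of all genes rose and 25.9% fell. The Groucho-type corepressors TLE2 and TLE3, which HES proteins recruit, rose by 1.04 (limma adjusted p = 1.08e-07) and 0.64 (adjusted p = 2.52e-06). With the SOX2 siRNAs 1 rose and 4 fell, TLE4 by 1.39 (adjusted p = 4.83e-09) and TLE2 by 0.70 (adjusted p = 4.95e-10), and with the NKX2-1 siRNAs 1 rose and 1 fell. These were TLE1 at 0.20 and NCOR1 at -0.13, and NKX2-1 siRNA 1 alone gave -0.0001 (adjusted p = 0.999) and -0.027 (adjusted p = 0.568). The call of TLE1 was lost with no filter (adjusted p = 0.114), without a variance trend (0.0813) and without si-control replicate 1 (0.0712), and that of NCOR1 under equal library totals (0.0522). Of 13 trafficking and ubiquitin ligase genes, 4 rose and 5 fell with circRMST, 5 rose and 4 fell with SOX2, and 3 rose and 3 fell with NKX2-1. DTX1, itself a known Notch target, stood at 48.3 and 96.8 in shGFP, at 24.1 and 10.8 with circRMST shRNA 1 and at 13.8 and 14.5 with circRMST shRNA 2. It fell by 2.11 (adjusted p = 0.000209), a difference of 56.8 normalized counts that lay above the 99th percentile (38.7) and below the maximum (271) of the silent genes, and the part of that background was not tested. NEURL1 fell by 1.65 (adjusted p = 4.28e-09), a difference of 300.4 normalized counts. NEURL1B rose by 0.62 with the SOX2 siRNAs and by 0.58 with the NKX2-1 siRNAs, there by 0.99 with siRNA 1 and 0.18 with siRNA 2. DTX2 fell by 0.48 (adjusted p = 0.00197) with the SOX2 siRNAs and by 0.51 (adjusted p = 0.00196) with the NKX2-1 siRNAs, and both calls were lost with no filter (adjusted p = 0.0776 and 0.0891), the latter also without a variance trend (0.0523).

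Of 7 other HES and HEY genes, HES7 and HEYL passed the minimum. HES7 stood at 62.7 and 81.6 in shGFP and at 7.33 to 22.5 with the circRMST shRNAs, and fell by 2.10 (limma adjusted p = 0.000199), a difference of 55.0 normalized counts, also above that percentile of 38.7. In poly(A) RNA it stood at 467, 449.7 and 457 in si-control, at 161 to 236 with the SOX2 siRNAs and at 169 to 200.3 with the NKX2-1 siRNAs. It fell by 1.27 (adjusted p = 1.84e-12) and 1.28 (adjusted p = 4.23e-12). HEYL fell by 0.55 (adjusted p = 0.00305) with the SOX2 siRNAs, with -0.96 (adjusted p = 7.17e-05) for siRNA 2 alone and -0.13 (adjusted p = 0.564) for siRNA 1 alone.

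Of 5 listed proneural and neuroendocrine factors, the kind of gene that HES proteins are known to hold down, 2 were tested. INSM1, a zinc finger factor of neuroendocrine cells, stood at 5159 and 6024 in shGFP, at 1860.2 and 1919.8 with circRMST shRNA 1 and at 2597 and 2578 with circRMST shRNA 2. It fell by 1.33 (SE 0.062, limma adjusted p = 2.04e-14), 2.52-fold, in the libraries in which HES1, HEY1 and HEY2 rose. By limma, INSM1 rose by 0.47 (adjusted p = 9.97e-11) with the SOX2 siRNAs, where HES1, HEY1 and HEY2 fell. It rose by 0.45 (adjusted p = 7.24e-10) with the NKX2-1 siRNAs, where HES1 and HEY2 fell but HEY1 rose. NEUROG2 fell by 2.86 (adjusted p = 8.91e-07) with the SOX2 siRNAs, from 23.7, 19.5 and 21.1 in si-control to 1.42 and 1.23 with siRNA 1 and 3.5 and 2.68 with siRNA 2, on 15 to 19 reads a library in the controls and 1 to 3 with the siRNAs. It passed the minimum for testing through the groups where it was high. NEUROG2 thus fell in libraries in which HES1, HEY1 and HEY2 also fell. A link of INSM1 or NEUROG2 with the HES and HEY genes was not tested.

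**Figure D4:**
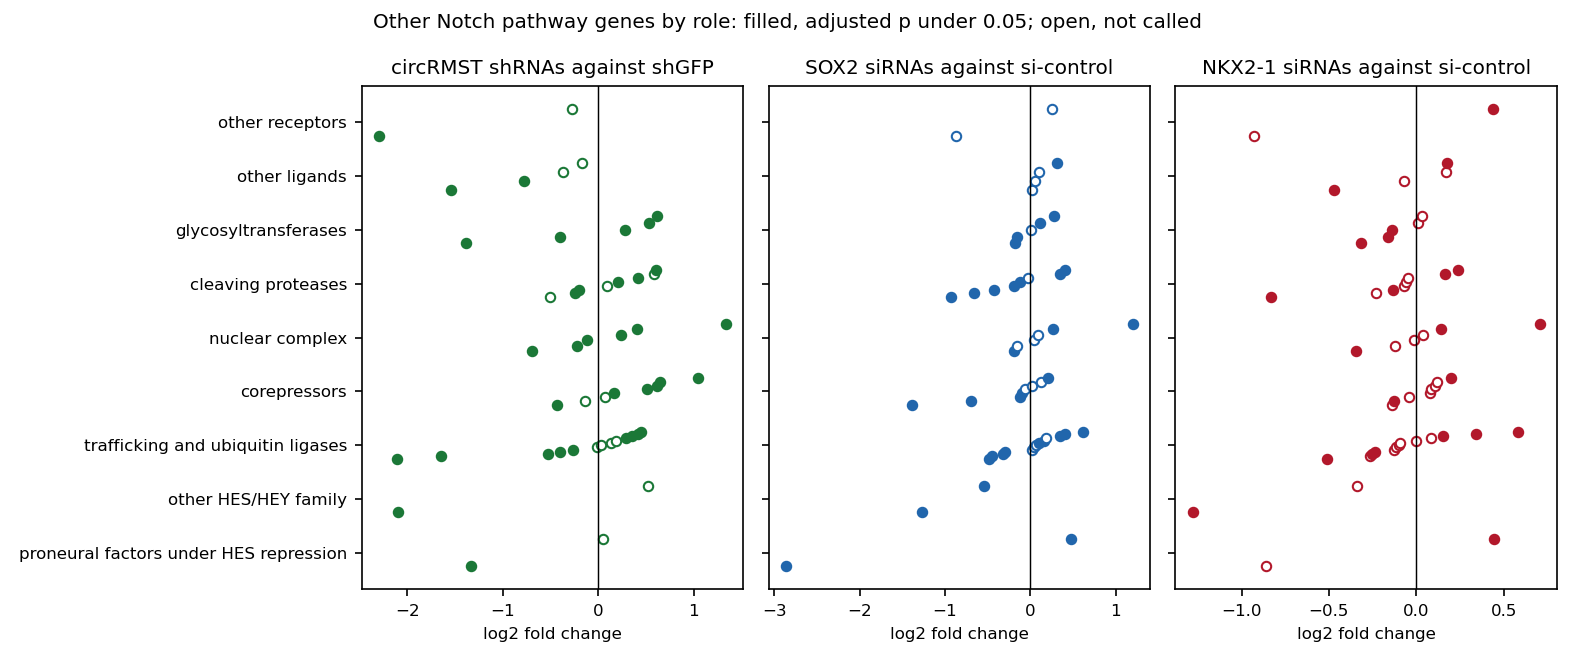
Log2 fold changes of 50 other Notch pathway genes by role in the 3 knockdowns, with a point for each gene, filled where the adjusted p was under 0.05. The lowest points are NEUROG2 at -2.86 for SOX2, which passed the minimum for testing through the groups where it was high, and NOTCH3 at -2.30 for circRMST, and the highest are KAT2B at 1.33 and RBPJ at 1.20.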

How the data were processed

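The deposited tables hold normalized counts per gene, a signal that the authors made with cutadapt 2.5, STAR 2.5.2b and DESeq2 (its version not given in the sources used here) on build hg38, per the submitters' processing notes. Whether strand was used in counting was also not given. Divided by the value of 1 read, all of them came out whole within 0.05 reads, which gave reads and depth. Non-human features (55 and 38) and chromosome Y pseudoautosomal copies (7 and 11) were left out, and 98.5% of gene IDs had a symbol. The series has 27 samples, and its 10 ChIP-seq and input samples were not analysed here.

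Genes with a mean of at least 10 (19068 and 16750) were fitted in limma 3.58.1 (R 4.3.3) on log2(normalized count + 1), where each table had 1 model with a mean for every group and a variance trend. Alternatives changed the pseudocount, the filter, the scaling, the variance trend, the libraries in the fit or a replicate block, used edgeR 4.0.16 or DESeq2 1.42.0 on the recovered reads, or left out each library. The fits were also run on simulated data in which few genes changed and all genes had the same dispersion, unlike here. That run does not check the calls given above. All 10 genes are named, with up to 2 genes per pathway list that passed with the largest change, and genes most alike among those with a mean of at least 50. The 10 genes and the lists were chosen with earlier results of these data known. A listed gene that is not reported here was left out of the lists and marker sums. Levels of different genes were not compared per length, since gene spans and not exon lengths were at hand, so that planned comparison was not made.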

Additional observations from a re-analysis of the deposited data

Results flagged for a closer look

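DLK1, HES6 and HEY1 moved in opposite directions in the knockdowns of SOX2 and NKX2-1, and the direct test between these knockdowns passed for each. As the SOX2 siRNAs minus the NKX2-1 siRNAs, the log2 difference by limma was -2.11 for HEY1 (SE 0.052, adjusted p = 4.65e-22), -0.75 for DLK1 (SE 0.076, adjusted p = 2.93e-09) and -0.51 for HES6 (SE 0.032, adjusted p = 1.65e-13). For each gene all 4 SOX2 siRNA libraries lay below all 4 NKX2-1 siRNA libraries.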

How the results depend on the processing

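With the circRMST shRNAs, the 5 genes that rose became 3 under equal library totals, equal totals without mitochondrial and RN7SL genes, and quantile normalization, and 3 to 5 when a library was left out (3 without shGFP replicate 2). The 3 that fell became 5 under equal library totals and 2 to 4 when a library was left out. Under equal library totals the median of all genes was -0.14. The number of all genes that fell went from 4936 to 10409 with no filter on low values, where the median of all genes was -0.51. The cause was not tested. Same-numbered libraries did not deviate together in total RNA (r = -0.183 to 0.099) or in most poly(A) pairs of groups (-0.038 to 0.039). The exception was NKX2-1 siRNA 1 with SOX2 siRNA 1, at -0.459. There replicate 1 of one group deviated with replicate 2 of the other. The deepest poly(A) libraries are in these groups, NKX2-1 siRNA 1 replicate 2 (50.1 M) and SOX2 siRNA 1 replicate 1 (30.7 M). The cause was not tested, and a block by replicate number does not take up this pattern. With a replicate block, JAG2 with the SOX2 siRNAs (-0.13, adjusted p = 0.0534) and NOTCH4 with the NKX2-1 siRNAs (0.30, adjusted p = 0.248) lost their calls. Of the alternative values of the 10 genes, 521 kept direction and call, 14 gained a call, 23 lost it and none reversed. For the other pathway genes named, 806 kept and 25 lost it. A library left alone in its group was assumed to vary like the others. With 1 to 25 reads a library, NOTCH1 in poly(A) RNA is limited by depth.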

Other observations

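Outside the Notch pathway, the sums of marker genes moved in different ways with the 3 knockdowns, and these sums were not tested. The 8 markers of non-neuroendocrine small cells summed to 725 to 751 normalized counts in si-control, to 378 to 567 with the NKX2-1 siRNAs and to 112 to 206 with the SOX2 siRNAs, where HES1, HEY2 and NRARP were also lower. Of these 8, 5 had a mean under 10 over the poly(A) libraries, among them POU2F3, which was not listed there. With the circRMST shRNAs the same sum was higher than in shGFP. Endothelial markers summed to 416 to 420 in shGFP and to 158 to 188 with the circRMST shRNAs. Of the 6 markers, 5 had a mean under 10 over the total RNA libraries and 4 over the poly(A) libraries. In poly(A) RNA the endothelial sum was 344 to 357 in si-control, 75.1 to 137 with the SOX2 siRNAs, 147 to 159 with NKX2-1 siRNA 1 and 436 to 446 with NKX2-1 siRNA 2. Fibroblast markers summed to 227 to 282 in shGFP, 776 to 819 with circRMST shRNA 1 and 380.4 to 458 with circRMST shRNA 2. They summed in poly(A) RNA to 102 to 133 in si-control, 242 to 313 with the SOX2 siRNAs and 108 to 127 with the NKX2-1 siRNAs. Of the 8 fibroblast markers, 4 had a mean under 10 over the total RNA libraries and 5 over the poly(A) libraries. SOX2 rose by 0.96 (limma adjusted p = 1.43e-14) with the NKX2-1 siRNAs, so the NKX2-1 knockdown libraries also held more SOX2 RNA. NKX2-1 rose by 0.21 (limma adjusted p = 0.00065) with the SOX2 siRNAs. With the circRMST shRNAs SOX2 rose by 0.24 (adjusted p = 0.00238) and NKX2-1 fell by 0.41 (adjusted p = 0.000166) by limma. There shRNA 1 alone gave 0.14 for SOX2 (adjusted p = 0.121), and shRNA 2 alone gave -0.19 for NKX2-1 (adjusted p = 0.095). The part of these changes in the Notch genes was not tested.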
